A study of Homo sapiens with 36 samples.

Results

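The response of MDA-MB-231 cells to a short hairpin RNA against KDM5A, labelled shKDM5A-1, was examined. MDA-MB-231 is an established human breast cancer line of basal, mesenchymal character. The comparison used 6 of the 36 libraries of the series, namely 3 MDA-MB-231 libraries with shKDM5A-1 and 3 with a control hairpin, labelled shControl. They were chosen by their column labels. A second hairpin against the same gene in the same line (shKDM5A-2, 3 libraries) and the same pair of hairpins in 293T cells, an embryonic kidney line (shKDM5A-1, 3 libraries, and shControl, 3 libraries), served for comparison. The 293T libraries with shKDM5A-2 (3 libraries) entered the fit of both lines but were not compared with any group. Every group therefore carried a hairpin, and no library without one was analysed here. The hairpin sequences, how they were delivered, the time after delivery and whether the cells were pools or clones are not given in the sources used here. The labels do not record separate cultures, so p-values measure the spread between these libraries, which may be technical.

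KDM5A is a demethylase that removes methyl groups from lysine 4 of histone H3, the mark found at the promoters of active genes. It was first isolated as a protein bound by the retinoblastoma protein, and it works beside SIN3 and NuRD corepressor complexes. The series as a whole asks how KDM5A relates to the prolyl hydroxylase EglN2 and to hydroxylation of histone H3. The comparison here asks which transcripts differ between cells with shKDM5A-1 and cells with shControl. MDA-MB-231 cells are known for constant NF-kB activity and for secreting the chemokines and cytokines that depend on it.

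The 6 libraries held between 14850582 and 19661501 counts each. In a principal component analysis of the 9 MDA-MB-231 libraries the first 2 components carried 52.2% and 34.9% of the variance and separated the 3 groups, and no library stood apart from its group. Mitochondrially encoded genes took 9.09% to 9.21% of counts with shKDM5A-1, against 7.67% to 7.72% with shControl. Genes of cytosolic ribosomal proteins took 4.73% to 5.02% of counts with shKDM5A-1 and 4.14% to 4.33% with shControl. The part of these shifts in the results below was not tested. All 25 markers of MDA-MB-231 cells were in the table. Their summed level was 14340 to 14550 CPM with shKDM5A-1, against 15880 to 16120 CPM with shControl. CPM are counts scaled to the library total after TMM adjustment, as described under processing. Markers of luminal, other epithelial and embryonic kidney cells, called luminal and other epithelial markers below, were low (7 of 15 in the table). They had 74.18 to 77.82 CPM in sum with shKDM5A-1 and 76.92 to 83.94 CPM with shControl, most of it ERBB2. ESR1, PGR, KRT5 and KRT14 had no row among the genes analysed. Of 15 markers of blood, endothelial and fibroblast cells, 6 were in the table. Their sum was 165.8 to 172.6 CPM with shKDM5A-1 and 127.3 to 135.3 CPM with shControl, most of it CD68, and CD3E, VWF and CDH5 had no row. In the test described below, 28.1% of all tested genes were higher and 27.2% lower. Of the 25 MDA-MB-231 markers, 8 were higher and 17 lower. Of the 7 luminal and other epithelial markers 2 were higher, the kidney marker SIX2 among them, and 4 lower. Of the 6 remaining ones 2 went each way. With DESeq2 the luminal and other epithelial markers became 0 higher and 2 lower, and 1 of the remaining ones was lower. Without shControl replicate 3 the luminal and other epithelial markers had 0 higher and the remaining ones 1, without shKDM5A-1 replicate 3 the luminal and other epithelial markers had 1 higher, and without shControl replicate 1 the remaining ones had 1 lower.

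KDM5A itself was reduced in every library with shKDM5A-1. The gene lies at chr12:280129-389454 on the minus strand (GRCh38) and had 16.1, 17.4 and 16.9 CPM with shKDM5A-1, against 54.9, 48.8 and 47.01 CPM with shControl. The groups were far apart and did not overlap, and the log2 fold change was -1.57 ± 0.062 (SE), with an adjusted p of 2.77e-20 in edgeR's quasi-likelihood F-test, which was fitted over all genes and adjusted by the Benjamini-Hochberg method. With shKDM5A-2 KDM5A had 19.4, 18.3 and 18.6 CPM, and the direct difference between the hairpins was -0.16 ± 0.073 on the log2 scale (edgeR adjusted p = 0.0636). Both related demethylases that were measured also fell, by much less. KDM5C, encoded on the X chromosome at chrX:53191321-53225422, had 174, 179 and 178 CPM with shKDM5A-1, against 216, 206 and 203 CPM with shControl (log2 fold change -0.24 ± 0.03, edgeR adjusted p = 4.78e-08). KDM5B, at chr1:202724495-202809470, had 97.1, 100.2 and 91.7 CPM with shKDM5A-1 and 107, 106 and 105 CPM with shControl (log2 fold change -0.14 ± 0.036, edgeR adjusted p = 0.00127). In bulk libraries a lower level in every cell cannot be told apart from fewer cells that express a gene.

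**Figure D1:**
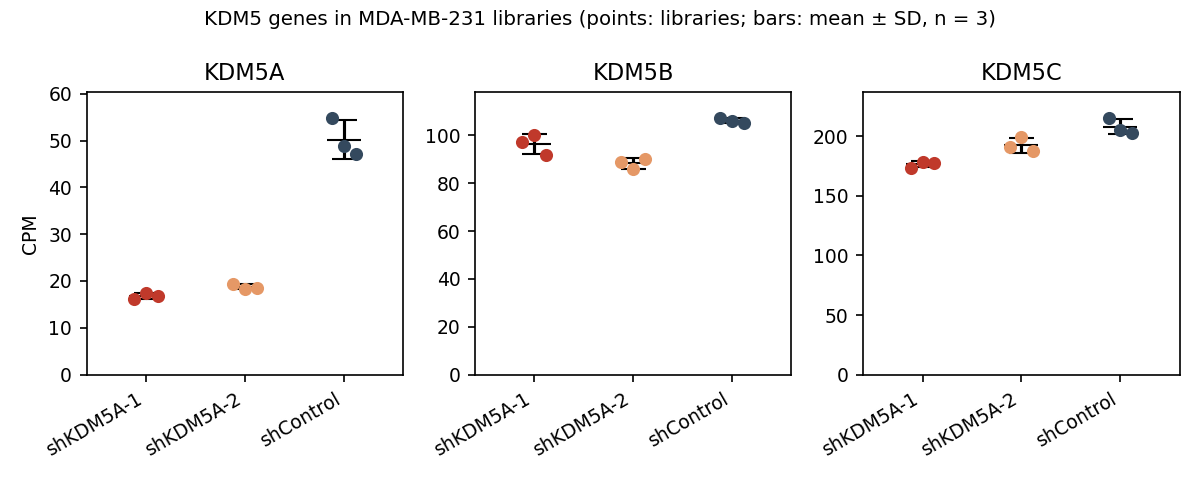
Level of KDM5A, KDM5B and KDM5C in CPM (vertical axis, linear from 0) in each MDA-MB-231 library with shKDM5A-1, shKDM5A-2 and shControl. Points are libraries and bars the mean ± SD of 3, and KDM5A lies at 16.8 ± 0.659 CPM with shKDM5A-1 and 50.2 ± 4.13 CPM with shControl, while KDM5B and KDM5C change little beside it.

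Over the whole transcriptome most differences were small. Of 15454 genes tested, 8548 passed the edgeR threshold of adjusted p under 0.05 with shKDM5A-1 against shControl, which is 55.3%. Of all tested genes 28.1% were higher (4348) and 27.2% lower (4200), and the median log2 fold change of all tested genes was -0.0048. The libraries of a group were closely spaced (biological coefficient of variation 0.0238), and small differences passed the threshold. The groups did not overlap for 4139 of the higher and 3981 of the lower genes, so separate groups were usual for a called gene. At least 2-fold, 157 genes were higher and 458 lower, and at least 4-fold, 15 were higher and 64 lower. Counts of list members below are read against the shares of 28.1% and 27.2%. Lists with more members lower numbered 29 of 44, and lists with more members higher numbered 11.

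**Figure D2:**
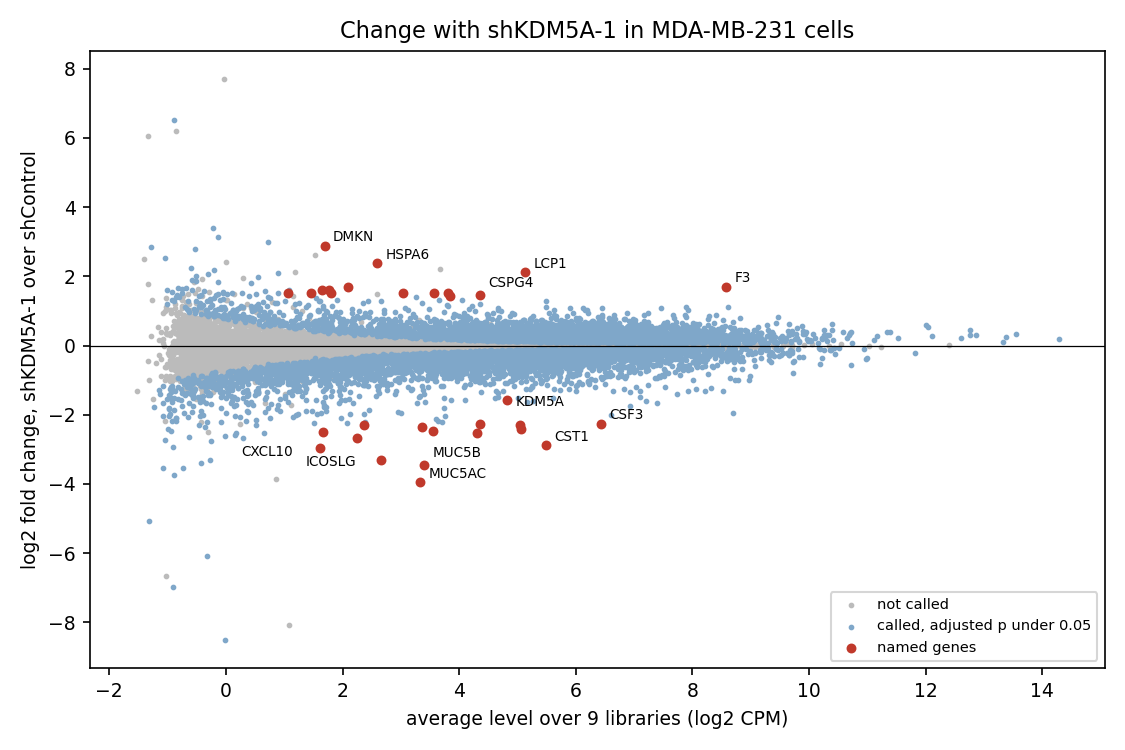
Log2 fold change of shKDM5A-1 against shControl in MDA-MB-231 (vertical axis) against the average level in log2 CPM (horizontal axis) for the 15454 genes tested. Grey points were not called, blue points were called, and red points are the 15 highest and 15 lowest genes of the text with KDM5A. Low genes scatter furthest from 0, and among the red points the lowest (MUC5AC, MUC5B, ICOSLG) reach further from 0 than the highest (DMKN).

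Among the 15 highest genes, taken from those with an average log2 CPM of at least 1 whose groups did not overlap, were several cell surface and secreted proteins. F3, tissue factor, which starts blood coagulation, had 629, 634 and 616 CPM with shKDM5A-1, against 188, 193 and 196 CPM with shControl (log2 fold change 1.70 ± 0.026, edgeR adjusted p = 3.58e-31). F3 was the most abundant of the 15. LCP1, an actin-bundling protein of blood cells that many carcinoma lines also make, had 44.2, 43.96 and 41.4 CPM with shKDM5A-1 and 9.71, 10.6 and 9.35 CPM with shControl (2.13 ± 0.065, edgeR adjusted p = 4.80e-23). DMKN, a secreted epidermal protein, showed the highest fold of the 15 at a low level, with 7.13, 6.40 and 6.02 CPM against 0.742, 1.31 and 0.610 CPM with shControl (2.89 ± 0.20). The heat shock protein gene HSPA6 had 4.90, 4.84 and 5.40 CPM with shKDM5A-1 and 0.539, 1.25 and 1.07 CPM with shControl, a log2 fold change of 2.37 ± 0.19. The proteoglycan gene CSPG4 had 40.4, 38.3 and 40.8 CPM with shKDM5A-1, against 12.8, 14.5 and 16.1 CPM with shControl. ID3, an inhibitor of helix-loop-helix transcription factors and a target of BMP signalling, had 18.99, 19.8 and 23.6 CPM against 8.56, 7.30 and 7.52 CPM with shControl. Log2 fold changes of the remaining genes of this rank lay between 1.51 (KDR, a VEGF receptor) and 1.70 (FAM69B). They included the interleukin receptor gene IL6R (1.62), the keratin gene KRT17 (1.61), IGFBP5 (1.53), the protease inhibitor gene SERPINB2 (1.52), the sphingosine phosphate receptor gene S1PR5 (1.51) and CYP1A1 (1.51), an oxidase induced through the aryl hydrocarbon receptor. KRTAP2-3 (1.52) shares reads with near-identical neighbours and is uncertain. IGFBP5 and SERPINB2 were low, with means of 1.90 and 2.86 CPM with shKDM5A-1 and 0.664 and 0.980 CPM with shControl. The level limit is an average that includes the shKDM5A-2 libraries, where IGFBP5 had a mean of 5.27 CPM.

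The 15 lowest genes by the same rule were mucins, cystatins, inflammatory mediators and a few surface proteins. MUC5AC, a gel-forming mucin, had 1.41, 2.45 and 1.504 CPM with shKDM5A-1, against 26.5, 29.6 and 27.2 CPM with shControl (log2 fold change -3.95 ± 0.13, edgeR adjusted p = 1.51e-20). Its neighbour MUC5B had 2.67, 2.67 and 2.51 CPM with shKDM5A-1 and 27.9, 32.1 and 27.04 CPM with shControl (-3.47 ± 0.11). Of 5 measured mucin and epithelial glycoprotein genes 3 fell, MUC2 being the other (-2.42), MUC6 was not called (0.48), and MUC1 rose (0.61, edgeR adjusted p = 0.00929), a call that was lost with DESeq2 (DESeq2 adjusted p = 0.0777). ICOSLG, the ligand of the T cell costimulator ICOS, had 1.25, 1.72 and 2.01 CPM with shKDM5A-1, against 17.3, 15.3 and 16.9 CPM with shControl. The cysteine protease inhibitor CST1 had 11.6, 10.02 and 10.1 CPM with shKDM5A-1 and 77.9, 75.4 and 79.3 CPM with shControl, and its relative CST4 6.42, 6.62 and 6.57 CPM against 31.8, 31.3 and 31.8 CPM with shControl. Groups without overlap were a condition for all 15, the cystatins included. The gelatinase gene MMP9 (-2.49), the collagen-binding integrin gene ITGA10 (-2.48), the keratin gene KRT15 (-2.29) and the NF-kB-responsive gene C15orf48 (-2.29) were also among the 15. The rest, CXCL10, CXCL11, SAA1, SAA2, CSF2 and CSF3, belong to the inflammatory groups described next.

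Chemokines were the list with the deepest fall among those with at least 10 measured members. They are small secreted proteins that draw leukocytes, and the ones in the first group below are textbook targets of NF-kB, a dimeric factor held in the cytoplasm by IkB proteins until a signal releases it. Of 12 measured members 10 fell and 1 rose, with a median log2 fold change of -1.55. The higher member was CCL26 (0.86 ± 0.36, edgeR adjusted p = 0.0422), a low gene whose call was lost with DESeq2, with no filter on low counts, and without shKDM5A-1 replicate 1, 2 or 3, shKDM5A-2 replicate 2 or shControl replicate 1 or 2. Before the values, promoters are shown for 7 of the NF-kB targets in which the letters GGGNNTTTC, the greater part of an NF-kB element, were found on either strand between 250 bases before and 50 after the gene start. Windows of 60 bases are given on the strand of the gene (RefSeq, GRCh38.p14), and capitals mark the match. The 7 are a selection, made with the values known, of chemokines, a cytokine and feedback genes described below. NFKBIA holds 3 matches, and the window around the one furthest upstream is given.
CXCL1, chr4:73869288-73869347, plus strand: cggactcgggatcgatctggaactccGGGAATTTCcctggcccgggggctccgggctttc
CXCL2, chr4:74099240-74099299, minus strand: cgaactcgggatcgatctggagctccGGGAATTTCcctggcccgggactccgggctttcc
CXCL3, chr4:74038735-74038794, minus strand: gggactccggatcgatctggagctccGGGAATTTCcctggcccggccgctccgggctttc
CCL20, chr2:227813738-227813797, plus strand: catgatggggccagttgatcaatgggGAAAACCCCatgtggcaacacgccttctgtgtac
IL6, chr7:22727101-22727160, plus strand: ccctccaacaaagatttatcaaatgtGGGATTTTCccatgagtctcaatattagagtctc
NFKBIA, chr14:35404893-35404952, minus strand: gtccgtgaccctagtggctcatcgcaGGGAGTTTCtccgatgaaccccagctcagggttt
BIRC3, chr11:102317260-102317319, plus strand: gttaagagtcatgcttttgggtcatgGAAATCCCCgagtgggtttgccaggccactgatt
The matches of CXCL1, CXCL2 and CXCL3 sit in nearly the same surroundings, as these genes are close copies. The letters occurred in the promoters of 4 of 10 chemokines with a promoter sequence and 3 of 15 cytokines. They were in 10 of 21 NF-kB genes and 0 of 11 acute phase genes. Among the 10204 tested genes with a promoter sequence the share was 6.64%. It was 8.86% (7 of 79) for genes at least 2-fold higher and 9.88% (25 of 253) for genes at least 2-fold lower. The motif was picked with the fold changes known, and a match describes the letters, not binding.

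CXCL8, the neutrophil attractant interleukin 8, was the most abundant chemokine and had 224, 232 and 227 CPM with shKDM5A-1, against 841, 897 and 880.0 CPM with shControl (log2 fold change -1.94 ± 0.027, edgeR adjusted p = 4.02e-32). CXCL1, which uses the same receptor family, had 51.5, 48.8 and 51.8 CPM with shKDM5A-1 and 201, 204 and 206 CPM with shControl (-2.005 ± 0.035, edgeR adjusted p = 1.79e-29). CXCL2 had 12.6, 12.97 and 12.6 CPM with shKDM5A-1, against 27.2, 31.02 and 29.6 CPM with shControl, and reads of CXCL1, CXCL2 and CXCL3 may be shared between these copies. In all 3 the groups did not overlap. CCL20, which attracts cells through CCR6, had a log2 fold change of -1.80 ± 0.34. Of the interferon-inducible chemokines, CXCL10 had 0.925, 1.06 and 0.836 CPM with shKDM5A-1 and 7.42, 7.18 and 7.47 CPM with shControl, and CXCL11 had 1.69, 1.72 and 1.34 CPM with shKDM5A-1 and 10.1, 10.3 and 9.81 CPM with shControl. CX3CL1, whose protein is a chemokine anchored in the membrane, had 1 count over the 3 libraries with shKDM5A-1, against 87 with shControl, a ratio of 0.0107 with an exact 95% counting interval of 0.000268 to 0.0612.

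Cytokines and colony-stimulating factors followed, with 16 of 21 measured members lower, 1 higher and a median log2 fold change of -0.53. CSF3, the growth factor of neutrophils, had 38.4, 36.9 and 39.1 CPM with shKDM5A-1, against 181, 179 and 186 CPM with shControl (log2 fold change -2.26 ± 0.041, edgeR adjusted p = 4.92e-29). CSF2, the granulocyte and macrophage factor, had 13.7, 15.7 and 14.7 CPM with shKDM5A-1 and 75.4, 76.5 and 81.9 CPM with shControl (-2.41 ± 0.056, edgeR adjusted p = 2.94e-26). Interleukin 6, IL6, had 32.8, 33.8 and 32.9 CPM with shKDM5A-1, against 92.7, 95.1 and 93.8 CPM with shControl (-1.502 ± 0.043, edgeR adjusted p = 8.08e-24). For IL6 all libraries with shKDM5A-1 lay under all with shControl, and for CSF2 and CSF3 this was a condition of their choice above. The macrophage factor CSF1, the most abundant of the list named here, had 356, 348 and 351 CPM with shKDM5A-1 and 679, 672 and 663 CPM with shControl, and IL1B had 43.5, 39.2 and 41.1 CPM against 70.2, 69.8 and 74.1 CPM with shControl. IL24, a member of the interleukin 10 family, was the higher one, at 53.5, 55.4 and 60.1 CPM with shKDM5A-1 and 33.3, 33.2 and 35.1 CPM with shControl (0.73 ± 0.051).

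Of 24 measured members of the NF-kB system, subunits and feedback genes together, 14 fell and 3 rose (median log2 fold change -0.37). NFKBIA, which encodes the inhibitor IkB alpha and is induced by NF-kB, had 100.1, 101 and 103 CPM with shKDM5A-1, against 183, 185 and 188 CPM with shControl (-0.87 ± 0.031, edgeR adjusted p = 4.73e-21). BIRC3, a ubiquitin ligase of TNF receptor complexes, had 110.3, 119.7 and 112 CPM with shKDM5A-1 and 209.9, 219.8 and 220.4 CPM with shControl (-0.93). TNIP1 (-0.83), the precursor subunit gene NFKB2 (-0.62), the mitochondrial dismutase gene SOD2 (-0.61), the adhesion receptor gene ICAM1 (-0.49) and the deubiquitinase gene TNFAIP3 (-0.45) fell as well. The subunit gene RELA was slightly higher (0.10 ± 0.037, edgeR adjusted p = 0.0241), with libraries of the 2 groups overlapping, and NFKB1 was at 0.012 ± 0.04 (edgeR adjusted p = 0.817). The other higher members were the inhibitor genes NFKBIB (0.38) and TNIP2 (0.31).

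Acute phase and complement genes had 13 of 17 members lower and 0 higher (median -0.63), with the other 4 not called. SAA1, serum amyloid A, had 8.05, 7.62 and 8.64 CPM with shKDM5A-1, against 47.9, 46.4 and 46.5 CPM with shControl (-2.53 ± 0.073), and its near copy SAA2 was at -2.36, with reads that may be shared. Complement C3, the central protein of the cascade, had 157, 154 and 157 CPM with shKDM5A-1 and 364, 356 and 355 CPM with shControl (-1.20 ± 0.027, edgeR adjusted p = 8.03e-27). PTX3, a soluble pattern recognition protein, had 85.9, 87.2 and 94.3 CPM with shKDM5A-1, against 277, 277 and 285 CPM with shControl (-1.65 ± 0.033). For C3 and PTX3 no library crossed into the other group, and for SAA1 this was a condition of its choice above. S100 and annexin genes, whose calcium-binding products are often secreted in inflammation, had 10 of 11 members lower and 0 higher (median -0.47), S100A4 at -0.98 being the furthest and S100P not called (-0.21).

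**Figure D3:**
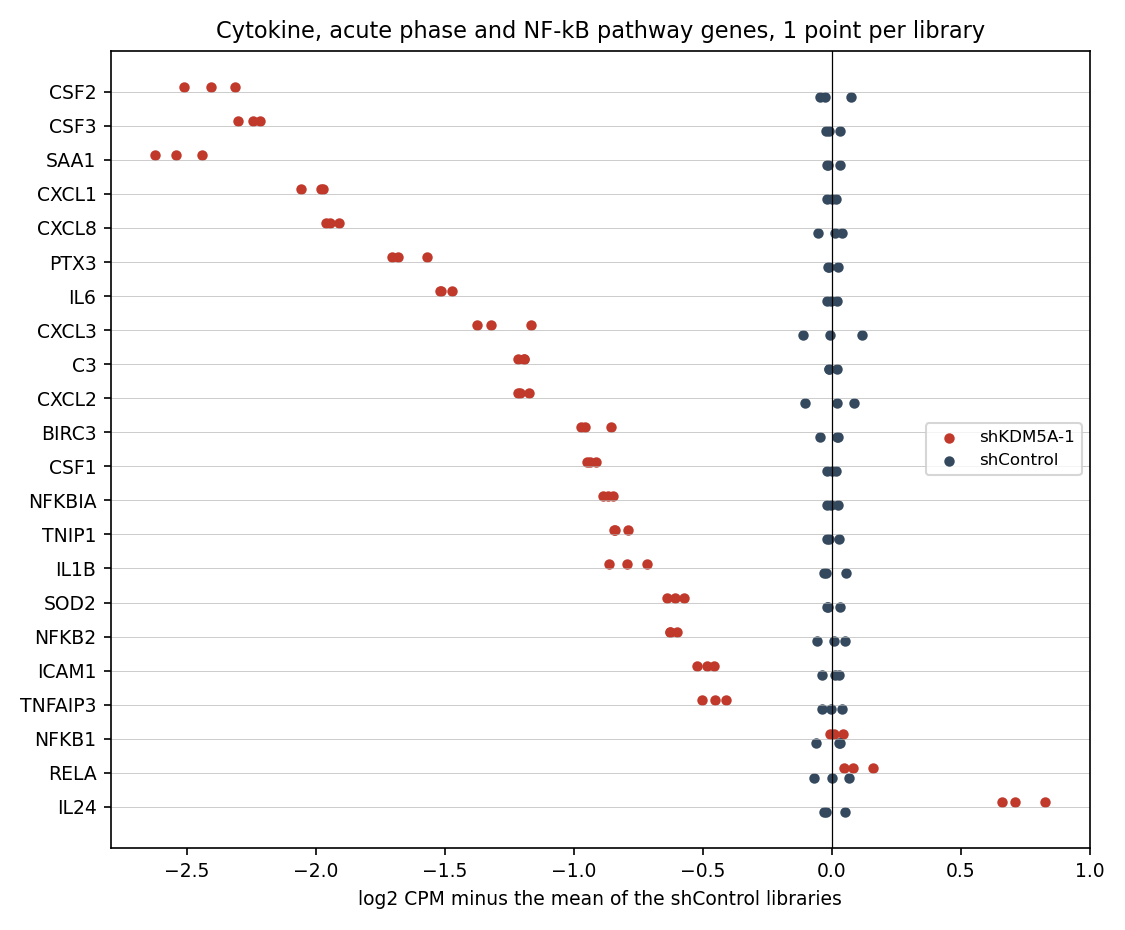
Log2 CPM minus the shControl mean (horizontal axis) for 22 inflammatory genes (rows) in the 3 libraries with shKDM5A-1 and the 3 with shControl. Points are libraries, and those with shKDM5A-1 lie left of the shControl points for CXCL8, CXCL1, CSF3, CSF2, IL6 and C3 with no overlap. For CSF2 and CSF3 this was a condition of their choice. IL24 lies right of the shControl points, and for RELA the groups overlap.

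Interferon-stimulated genes, the antiviral program, fell in 28 of 38 measured members and rose in 3 (median -0.45). The guanylate-binding protein gene GBP1 had 23.9, 23.9 and 22.8 CPM with shKDM5A-1, against 55.5, 57.8 and 55.9 CPM with shControl (-1.26 ± 0.048, edgeR adjusted p = 1.26e-20). GBP2 (-1.53), the antiviral GTPase gene MX2 (-1.20), SAMD9L (-1.04) and the oligoadenylate synthetase gene OAS2 (-0.88) fell as well. The higher members included IFI6 (0.34) and the ISG15 protease gene USP18 (0.50). ISG15 (-0.076) and MX1 (-0.10) were not called. Sensors of cytosolic DNA and RNA had 8 of 15 lower and 3 higher (median -0.20).

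Antigen presentation genes had 15 of 22 lower and 4 higher (median -0.22). Members of the class II pathway were among the furthest, with HLA-DRA at -1.24, the invariant chain gene CD74 at -0.76 and their master regulator CIITA at -0.75. B2M, the light chain of class I molecules, was lower by a small amount (-0.21). The higher members besides CD274 were TAP2 (0.31), NLRC5 (0.28) and HLA-F, which rests on 8 counts with shKDM5A-1 and 1 with shControl. CD274, which encodes the checkpoint ligand PD-L1, went the other way, with 37.9, 34.5 and 33.4 CPM with shKDM5A-1, against 22.5, 22.9 and 22.3 CPM with shControl (0.64 ± 0.059, edgeR adjusted p = 4.18e-11). The groups did not overlap for CD274. UBD, a ubiquitin-like gene induced by interferon and TNF, had 0 counts with shKDM5A-1, against 45 in the 3 shControl libraries, at least 16.1-fold lower when 3 counts over the group are taken as the floor.

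Targets of the hypoxia-inducible factors were lower as a group. These factors bind DNA at the letters ACGTG, and their alpha subunits are marked for destruction by prolyl hydroxylases of the EGLN family. Of 41 measured targets 33 fell and 4 rose, with a median log2 fold change of -0.46. Promoter windows are shown for 4 targets that carry the letters on either strand, in the same format as above. The 4 are a selection, made with the values known. Where 2 matches overlap the capitals run together.
CA9, chr9:35673882-35673941, plus strand: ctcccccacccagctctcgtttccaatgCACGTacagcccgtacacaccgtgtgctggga
ANKRD37, chr4:185396651-185396710, plus strand: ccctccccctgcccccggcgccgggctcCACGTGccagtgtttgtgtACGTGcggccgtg
PDK1, chr2:172556045-172556104, plus strand: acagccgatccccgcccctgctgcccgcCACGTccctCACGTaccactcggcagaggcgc
BNIP3, chr10:131982026-131982085, minus strand: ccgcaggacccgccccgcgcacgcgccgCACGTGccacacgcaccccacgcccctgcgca
ACGTG was found in 23 of 34 target promoters with a sequence (67.6%), against 32.4% of tested genes with one. The list holds known targets of factors that bind these letters, so its share does not bear on shKDM5A-1. Among genes at least 2-fold higher ACGTG was in 27 of 79 promoters (34.2%), and among those at least 2-fold lower in 59 of 253 (23.3%). Of the target promoters 2 of 34 held GGGNNTTTC. ANGPTL4, a secreted inhibitor of lipoprotein lipase, had 4.41, 5.01 and 5.07 CPM with shKDM5A-1, against 21.3, 22.4 and 22.4 CPM with shControl (-2.19 ± 0.089). NDRG1, the most abundant of those named, had 156, 151 and 156 CPM with shKDM5A-1 and 409, 399 and 405 CPM with shControl (-1.39 ± 0.028, edgeR adjusted p = 3.87e-28). The groups were apart for both. The carbonic anhydrase gene CA9 (-1.59), the collagen cross-linking oxidase gene LOX (-1.14), ANKRD37 (-1.14), the mitochondrial kinase gene PDK1 (-0.79), the mitophagy receptor gene BNIP3 (-0.78) and the lactate dehydrogenase gene LDHA (-0.57) fell too. VEGFA, the main angiogenic factor, was lower at -0.24. The higher members included the transferrin receptor gene TFRC (0.68) and the glucose transporter gene SLC2A3 (0.47).

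In the oxygen-sensing machinery 7 of 10 members fell and 1 rose. EGLN3, itself a hypoxia target, had 6.91, 5.62 and 5.74 CPM with shKDM5A-1, against 13.7, 11.9 and 11.8 CPM with shControl (-1.03 ± 0.11). EGLN1 was at -0.35, EGLN2 at -0.11 and the ubiquitin ligase subunit gene VHL at -0.52, all lower, and HIF1A was higher at 0.19. EPAS1, which encodes the HIF2 alpha subunit, was not called (-0.037 ± 0.035, edgeR adjusted p = 0.38).

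Genes of adhesion and matrix moved mostly down. Integrins, the receptors that tie cells to matrix, fell in 11 of 13 measured members (median -0.46), with ITGB8 at -1.77, ITGA1 at -1.30 and the laminin receptor chain gene ITGB4 at -1.06. ITGB3 was the higher one (0.32), a call lost with DESeq2, without shKDM5A-1 replicate 1 and without shControl replicate 3. Collagens and matrix proteins fell in 23 of 34 and rose in 5 (median -0.41). Fibronectin, FN1, had 314, 320.0 and 305 CPM with shKDM5A-1, against 617, 634 and 628 CPM with shControl (-1.002 ± 0.025, edgeR adjusted p = 1.14e-25). The laminin gene LAMA5 (-0.997) and the tenascin gene TNC (-1.13) fell, while the matrix protein gene TGFBI rose by 0.89. Proteases and their inhibitors fell in 18 of 29 and rose in 9, with ADAM8 (-1.31) and the inhibitor gene TIMP3 (-1.30) lower, and the collagenase gene MMP1 (1.08) and ADAMTS1 (1.03) higher.

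Several ligands of the EGF receptor fell and the receptor rose. In the family 10 of 13 members were lower and 1 higher (median -0.60), or 2 higher without shKDM5A-1 replicate 2 or shControl replicate 2. The ligand genes TGFA (-1.05), AREG (-0.77) and EREG (-0.60) were lower. EGFR had 433, 429 and 403 CPM with shKDM5A-1, against 281, 288 and 279.8 CPM with shControl (0.58 ± 0.027, edgeR adjusted p = 2.37e-18). Immediate early genes, which answer growth factor signals within minutes, fell in 17 of 31 and rose in 9, with EGR3 (-1.75), FOSB (-1.29) and FOS (-1.05) lower and the phosphatase gene DUSP1 (0.74) higher.

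Several targets of YAP, the transcriptional coactivator of the Hippo pathway, were higher. Of 21 measured, 12 rose and 6 fell (median 0.22). CTGF had 308, 309 and 307 CPM with shKDM5A-1, against 167, 172 and 170.4 CPM with shControl (0.86 ± 0.025, edgeR adjusted p = 1.92e-23), and CYR61 (0.81), ANKRD1 (0.76) and the receptor tyrosine kinase gene AXL (0.51) rose with it. NT5E fell (-0.58). In the TGF-beta superfamily 12 of 38 rose and 17 fell, with ID3, INHBE (1.44) and GDF15 (1.08) higher and TGFB3 (-1.07) and the receptor gene TGFBR2 (-0.67) lower. Genes of epithelial junctions and of the mesenchymal transition split, with 9 of 19 higher, among them SNAI1 (1.03) and SNAI2 (0.66), and 6 lower, among them ZEB2 (-0.53) and VIM (-0.20).

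Most genes of proliferation rose, by small amounts. Of 45 mitotic genes 37 were higher and 1 lower (median 0.26), and of 46 genes of DNA replication 35 were higher and 3 lower (median 0.23). CDC20, the activator of the anaphase-promoting complex, had 331, 329 and 336 CPM with shKDM5A-1, against 211, 209 and 212 CPM with shControl (0.66 ± 0.025, edgeR adjusted p = 1.59e-20). The checkpoint gene MAD2L1 (0.53), the topoisomerase gene TOP2A (0.45) and the regulator gene FOXM1 (0.41) rose, and PTTG1 was the lower one (-0.10). Among replication genes GINS3 (0.81), RFC3 (0.69) and the ribonucleotide reductase gene RRM2 (0.63) led, and CHAF1B (-0.45), MCM6 (-0.30) and LIG1 (-0.19) were lower. The proliferation marker MKI67 was not called (0.047 ± 0.046, edgeR adjusted p = 0.424). G1 regulators split evenly, 7 of 15 each way, with the inhibitor gene CDKN1A lower (-0.44) and RB1, which encodes the retinoblastoma protein, higher (0.36).

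Cytosolic ribosomal protein genes moved as a block, with 41 of 43 higher, 0 lower and a median log2 fold change of 0.23. RPS2 was at 0.61 and RPS24 at 0.0018, which was not called. Their many processed copies in the genome can share reads, and their share of all counts, given above, moved the same way. Nuclear genes of mitochondrial biogenesis and dynamics rose in 11 of 18 and fell in 3 (median 0.24), with the import receptor gene TOMM20 at 0.47 and the transcription factor gene GABPA lower at -0.37. Subunits of the respiratory chain, targets named for KDM5A in other systems, had 8 of 39 higher and 11 lower (median -0.0031), a share under the background for higher genes and near it for lower ones, and 5 were higher without shControl replicate 1.

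Stress and metabolic lists were mixed. The unfolded protein response fell in 17 of 24 members and rose in 3 (median -0.24), with the chaperone genes HSP90B1 (-0.53) and DNAJB9 (-0.55) lower. Targets of ATF4, which drives amino acid uptake and synthesis, rose in 17 of 34 and fell in 9, led by VLDLR downward (-1.37) and by the amino acid transporter gene SLC7A5 upward, with 731, 725 and 703 CPM with shKDM5A-1 and 475, 462 and 448 CPM with shControl. Cholesterol and fatty acid synthesis had 12 of 33 in each direction. NRF2 targets fell in 11 of 21 and rose in 5, targets of p53 fell in 10 of 25 and rose in 8, and lysosome and autophagy genes fell in 11 of 33 and rose in 10. Wnt and NOTCH genes fell in 17 of 33 and rose in 8, with AXIN2 (-0.98) and HES1 (-0.95) lower and DKK1 (1.02) and NRARP (1.58) higher. The BCL2 family had 6 of 15 each way, with BCL2A1 lower (-2.54) and BCL2L11 higher (0.74). Few members of the remaining lists were in the table. The metallothionein list, which also holds the transcription factor gene MTF1 and the zinc transporter gene SLC30A1, had 1 of 7 higher and 3 lower. Germline genes had 3 of 8 higher and 1 lower, neuronal genes 1 of 10 higher and 4 lower, and homeobox genes 2 of 8 higher and 0 lower. These small counts were unsteady. The higher member of the metallothionein list was MTF1, not a metallothionein. Its call was lost with DESeq2 and without shKDM5A-1 replicate 1 or 2 or shControl replicate 2 or 3. All higher germline genes were lost with DESeq2 and without shKDM5A-1 replicate 3 or shControl replicate 3, and 1 stayed without shControl replicate 1, while the lower one was lost with DESeq2 and without shKDM5A-1 replicate 2. The higher neuronal gene was lost without shControl replicate 2 or 3, and 2 were called without shKDM5A-1 replicate 3.

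The chromatin machinery around KDM5A showed small changes. Of 20 members of the complexes that methylate H3 lysine 4, 7 were higher, the core subunit gene WDR5 among them (0.34), and 4 lower, led by the methyltransferase gene KMT2C (-0.71). Of 31 genes of the RB, SIN3 and NuRD complexes 12 were higher and 8 lower, with E2F4 at 0.60 and the NuRD subunit gene MTA2 at -0.73 ± 0.031 (edgeR adjusted p = 2.26e-19). Other JmjC and LSD demethylases fell in 8 of 21 and rose in 3, with KDM3A at -0.55 and KDM1A, which removes methyl groups from the same lysine, at 0.33. The letters CCGCCC, reported as the sequence that the DNA-binding domain of KDM5A prefers, were in 57 of 79 promoters of genes at least 2-fold higher (72.2%), in 160 of 253 of genes at least 2-fold lower (63.2%), and in 76.2% of all tested genes with a promoter sequence.

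**Figure D4:**
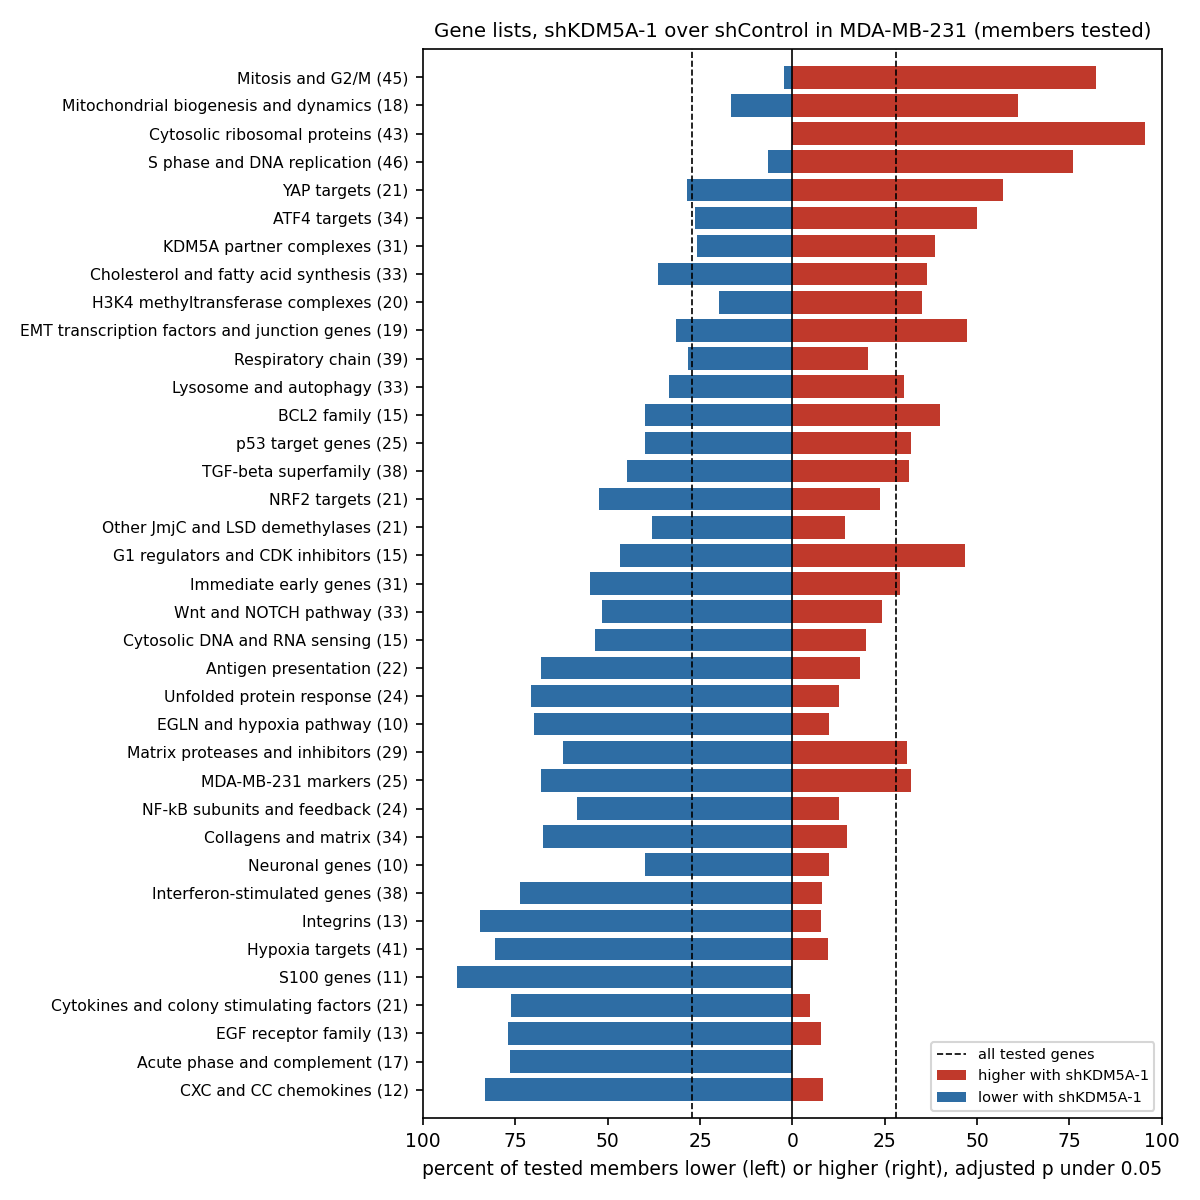
Share of members called lower (left of 0) and higher (right of 0), in percent, for the 37 lists with at least 10 members tested, in shKDM5A-1 against shControl. Dashed lines mark the shares over all genes, 28.1% higher and 27.2% lower, and ribosomal proteins (41 of 43 higher) and S100 genes (10 of 11 lower) reach furthest past them.

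The direct contrast with shKDM5A-2 sets shKDM5A-1 against another hairpin to the same gene. At the same edgeR threshold 56.6% of genes differed between the hairpins, 29.7% higher and 26.9% lower with shKDM5A-1 (4593 and 4159 genes). At least 2-fold, 375 genes were higher and 523 lower, more than against shControl. Both contrasts use the shKDM5A-1 libraries, so values are given side by side and not correlated. Of the genes above, MUC5AC had 1.98, 1.34 and 1.13 CPM with shKDM5A-2 and CXCL8 154, 147 and 152 CPM, both under the shControl libraries as with shKDM5A-1. Acute phase and complement genes were higher with shKDM5A-1 than with shKDM5A-2 in 12 of 17 members and lower in 3. Cytokines were higher in 11 of 21 and lower in 4, NF-kB genes in 14 of 24 and 5, and S100 genes in 9 of 11 and 1. Chemokines had 5 of 12 higher and 4 lower, and interferon-stimulated genes 12 of 38 higher and 14 lower. CSPG4 stood at 6.17, 6.83 and 6.26 CPM with shKDM5A-2, under shControl, while shKDM5A-1 was above it (log2 difference between hairpins 2.63 ± 0.078, edgeR adjusted p = 1.67e-23). GBP1 did the reverse, with 23.9, 23.9 and 22.8 CPM with shKDM5A-1, 97.1, 97.7 and 95.4 CPM with shKDM5A-2 and 55.5, 57.8 and 55.9 CPM with shControl (-2.04 ± 0.043). CST1 was much closer to shControl with shKDM5A-2, at 47.9, 48.3 and 46.4 CPM (-2.16 ± 0.061).

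Sterol synthesis genes set the hairpins apart. In cholesterol and fatty acid synthesis 27 of 33 members were higher and 2 lower with shKDM5A-1 than with shKDM5A-2 (median difference 0.53). The desaturase gene SCD had 613, 606 and 587 CPM with shKDM5A-1, 157, 155 and 161 CPM with shKDM5A-2 and 558, 572 and 576 CPM with shControl. INSIG1, a sterol sensor and itself a target of the sterol pathway, had 118, 117 and 119.6 CPM with shKDM5A-1, 33.1, 30.9 and 33.3 CPM with shKDM5A-2 and 81.1, 87.3 and 81.1 CPM with shControl. For both genes the shKDM5A-2 libraries were the low ones. Ribosomal protein genes were higher than with shKDM5A-2 in 43 of 43 members, mitotic genes in 35 of 45 and hypoxia targets in 32 of 41. Lower than with shKDM5A-2 were 25 of 34 targets of ATF4, among them asparagine synthetase gene ASNS (-1.21), and 16 of 22 antigen presentation genes. Hypoxia targets were thus below shControl and above shKDM5A-2, NDRG1 for instance at 84.3, 87.02 and 80.7 CPM with shKDM5A-2 (0.88 ± 0.032). EGFR was not called between the hairpins (0.0052 ± 0.026, edgeR adjusted p = 0.88).

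The 6 highest and 6 lowest genes of the direct contrast were taken from those with an average log2 CPM of at least 1, and lower genes such as LCN2 (log2 difference 4.05 ± 0.62) stood further apart than some of them. MDK, the heparin-binding growth factor midkine, had 30.5, 33.4 and 34.7 CPM with shKDM5A-1, 5.82, 5.27 and 6.31 CPM with shKDM5A-2 and 20.9, 19.8 and 19.4 CPM with shControl (2.50 ± 0.081). The calcium-binding protein gene S100P was at 3.02, PALM at 2.45 and PLSCR4 at 2.43, and LEFTY1 was near the floor of detection with 1.69, 0.946 and 1.78 CPM with shKDM5A-1 and 0, 0 and 0.216 CPM with shKDM5A-2. On the lower side, the sphingolipid transporter gene SPNS2 had 0.435, 0.835 and 0.557 CPM with shKDM5A-1, 14.4, 12.7 and 13.5 CPM with shKDM5A-2 and 1.01, 1.19 and 1.02 CPM with shControl (-4.46 ± 0.17, edgeR adjusted p = 9.01e-21). The smooth muscle actin gene ACTG2 (-3.08), SERPINB7 (-2.88), the granin gene SCG2 (-2.82) and MYH15 (-2.78) followed. RGPD5 (-2.68) has near-identical copies and uneven libraries, 12.8, 0.278 and 1.17 CPM with shKDM5A-1 and 11.9, 40.8 and 39.3 CPM with shKDM5A-2, and lost its call under several alternatives.

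The effect of shKDM5A-1 in MDA-MB-231 cells was set against its effect in 293T cells. The difference between the lines was tested as an interaction in a fit of 18 libraries and 14767 genes that are in both tables. In that fit 39.5% of genes differed between the lines at adjusted p under 0.05, 21.6% with a higher effect in MDA-MB-231 (3196 genes) and 17.8% with a lower one (2632), and at least 2-fold 293 and 191. KDM5A fell in both lines, with a log2 fold change of -1.32 ± 0.049 in 293T (edgeR adjusted p = 1.83e-23), and its line difference was -0.27 ± 0.077 (edgeR adjusted p = 0.00549). In 293T 3033 genes were called higher and 3261 lower, at least 2-fold only 20 and 180. Of the 14306 genes tested in both fits, 3019 (21.1%) were higher and 3203 (22.4%) lower in 293T. Of the 4211 genes that were higher in MDA-MB-231 and tested in both lines, 1873 (44.5%) were also higher in 293T and 482 (11.4%) lower. Of the 3781 lower ones, 1549 (41%) were also lower in 293T and 324 (8.57%) higher. The lines share no library. Across 14767 genes, which are not independent replicates, Pearson's r of the log2 fold changes in the 2 lines was 0.183.

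By list, the mitotic genes had a higher effect in MDA-MB-231 in 35 of 45 members and a lower one in 0, and their median in 293T was -0.02. Ribosomal proteins had 28 of 43 higher and 2 lower, and replication genes 18 of 46 and 6. Hypoxia targets had a lower effect in MDA-MB-231 in 23 of 38 and a higher one in 3, NDRG1 at -1.12 ± 0.04. NF-kB genes had 9 of 23 lower and 0 higher, among them NFKBIA (-0.90 ± 0.087), whose 293T effect was 0.016 (edgeR adjusted p = 0.893). Of the chemokines 4 were tested in both lines, 2 with a lower effect in MDA-MB-231. The unfolded protein response had 16 of 24 lower and 1 higher, HSPA5, the main chaperone of the endoplasmic reticulum, at -0.49 ± 0.028. C3 fell in MDA-MB-231 and was not called in 293T (0.050 ± 0.088, edgeR adjusted p = 0.715), with a line difference of -1.26 ± 0.094. CSPG4, which rose in MDA-MB-231, was lower in 293T (-0.68, line difference 2.12 ± 0.11). CYP1A1 rose in MDA-MB-231 and was lower in 293T (-0.85 ± 0.17, edgeR adjusted p = 1.24e-04). Its 293T level was low, at 1.51, 1.32 and 1.19 CPM with shKDM5A-1 and 2.23, 2.37 and 2.61 CPM with shControl. MTA2 fell in both lines, at -0.84 ± 0.029 in 293T, and the line difference was 0.10 ± 0.042 (edgeR adjusted p = 0.0555).

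**Figure D5:**
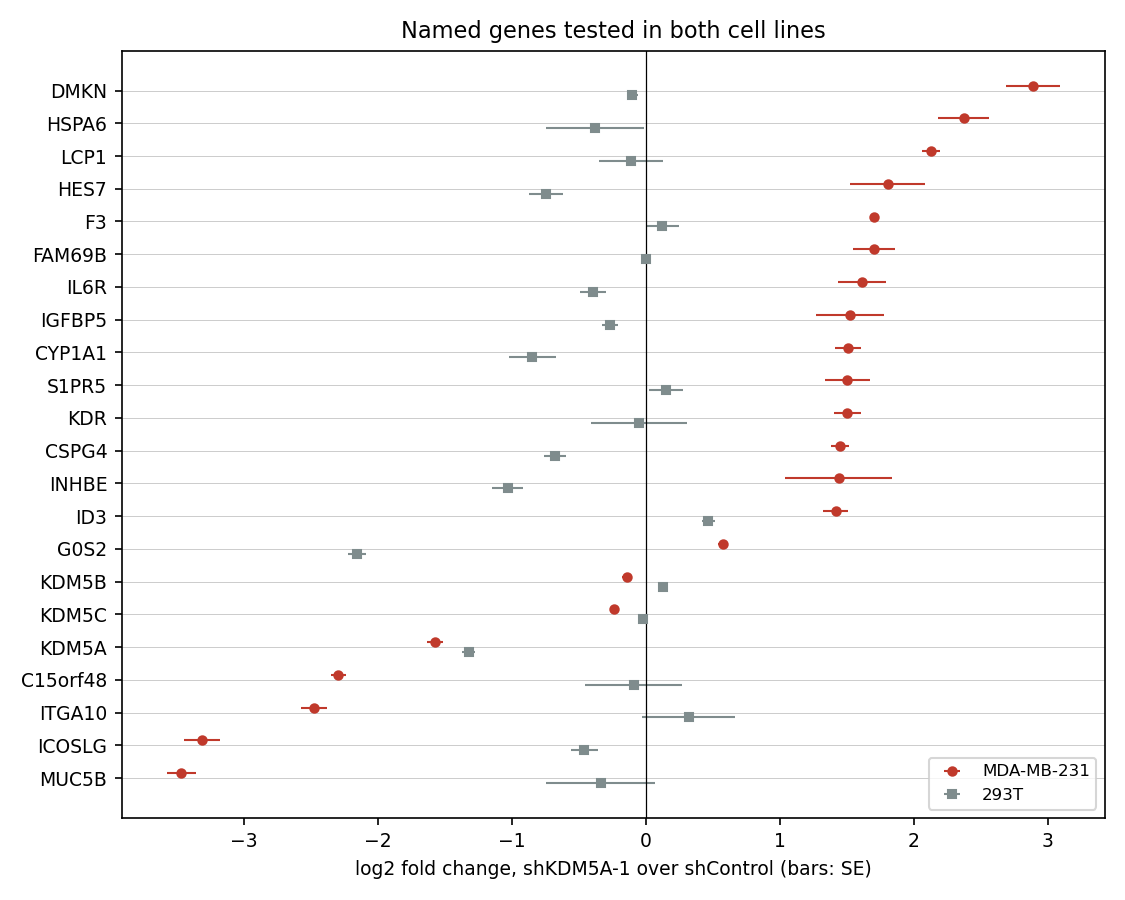
Log2 fold change of shKDM5A-1 against shControl (horizontal axis, ± SE) for 22 named genes (rows) in MDA-MB-231 and in 293T. The MDA-MB-231 values come from the fit of 9 libraries and the 293T values from the fit of 18. KDM5A falls in both lines, while CSPG4 and CYP1A1 lie right of 0 in MDA-MB-231 and left of it in 293T, where CYP1A1 is low.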

How the data were processed

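The deposited table of the MDA-MB-231 KDM5A experiment holds 9 columns of raw counts per the file headers and 9 of normalized values, and the 293T table has the same form. The deposited raw values are estimated counts, since 50.4% of them are whole (remainder of exactly 0), and were rounded to whole numbers. The normalized columns of both tables, deposited by the authors on a log2 scale whose transformation is not given in the sources used here, were left out, 18 in all. The submitters' processing notes list STAR 2.4.2 and Salmon 0.1.19, and as builds hg19 and GRCh38, with no role for any of them. Which of these made the table, and whether strand was used, are not given. Per the labels' protocols, RNeasy columns and NEBNext Ultra II reagents were used. Every row of the deposited tables reaches at least 10 counts in some library. Gene names turned into dates were left out (20 of 16217 rows, 0.2% of counts).

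edgeR 4.0.16 (R 4.3.3) was run on the 9 MDA-MB-231 libraries with TMM scaling, a robust quasi-likelihood fit and a two-sided F-test, after filterByExpr at a count minimum of 10. A gene was called at a Benjamini-Hochberg adjusted p under 0.05 over the 15454 genes tested. CPM are counts over TMM-adjusted library totals. The interaction with the cell line used 18 libraries, those with shKDM5A-2 in both lines included. Total counts of 14850582 to 19661501 per library set the precision, and counting intervals cover counting error only. The fit was tested on simulated counts in which far fewer genes were changed than were called here. At a true log2 fold change of -1 it recovered 36 of 47 genes, and at 1 it recovered 45 of 50. At -0.585 it recovered 34 of 49 and at 0.585 42 of 50, with 8 false calls among 15213 genes. Scaling with as many changed genes as here was not tested. Gene coordinates come from GENCODE 29 (GRCh38) and promoters from RefSeq.

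A set of 44 lists with 1111 symbols was used, of which 949 were in the table (5 by an older symbol) and 939 were tested. Lists were described by counts and medians, with no test of the list. The members, lists, motifs and tests were chosen with earlier results of these data known. Named genes were KDM5A, KDM5B and KDM5C, the 15 highest and 15 lowest called genes with an average log2 CPM of at least 1 and groups that did not overlap, up to 6 called members per list with the largest change, and the 6 highest and 6 lowest of each further contrast at the same level limit. Other members of a described list are given for context, and a few of the genes so chosen are not reported here. Alternatives were the Wald test of DESeq2 1.42.0, median-of-ratios size factors, no filter, a filter at average log2 CPM 1, an adjusted p under 0.01, a 1.5-fold minimum, a replicate block, the libraries of a comparison alone, and each library left out in turn.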

Additional observations from a re-analysis of the deposited data

Results flagged for a closer look

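The effect of shKDM5A-1 differed between MDA-MB-231 and 293T by the interaction test (edgeR adjusted p under 0.05) in 3196 genes with a higher effect in MDA-MB-231 and 2632 with a lower one. The genes named here stand furthest apart, and each value is the log2 fold change in MDA-MB-231 minus that in 293T, from a fit of 18 libraries. Several rest on a low level in one line, and the part of that level in the difference was not tested.

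DMKN differed by 2.98 ± 0.19 (edgeR adjusted p = 4.23e-16). In MDA-MB-231 it was low in every library, while in 293T it had 71.5, 79.8 and 75.1 CPM with shKDM5A-1 and 80.8, 80.1 and 82.1 CPM with shControl. G0S2, an inhibitor of the triglyceride lipase ATGL, differed by 2.72 ± 0.076. It had 219, 207 and 232 CPM with shKDM5A-1 and 153, 146 and 143 CPM with shControl in MDA-MB-231, and 9.78, 8.02 and 8.19 CPM with shKDM5A-1 and 38.02, 37.95 and 39.4 CPM with shControl in 293T, so the groups stood apart in both lines in opposite directions. HSPA6 differed by 2.74 ± 0.44, with 0.223, 0.738 and 0.431 CPM with shKDM5A-1 and 0.582, 0.845 and 0.373 CPM with shControl in 293T. HES7, a helix-loop-helix repressor of the NOTCH pathway, differed by 2.54 ± 0.27, with 2.23, 2.56 and 2.56 CPM with shKDM5A-1 and 0.674, 0.874 and 0.559 CPM with shControl in MDA-MB-231. INHBE, an inhibin beta chain, differed by 2.46 ± 0.36, with 0.653, 0.779 and 1.67 CPM with shKDM5A-1 and 0.337, 0.375 and 0.407 CPM with shControl in MDA-MB-231. HLA-F differed by 3.05 ± 0.96, but rests in MDA-MB-231 on 8 counts with shKDM5A-1 and 1 with shControl, a ratio of 7.44 with an exact 95% counting interval of 0.998 to 330, and its call was lost without MDA-MB-231 shControl replicate 2 (edgeR adjusted p = 0.0537).

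On the lower side, MUC5B differed by -3.15 ± 0.49 and ICOSLG by -2.87 ± 0.17. ITGA10 differed by -2.81 ± 0.39, with 0.670, 0.316 and 0.485 CPM with shKDM5A-1 and 0.339, 0.322 and 0.513 CPM with shControl in 293T. C15orf48 differed by -2.22 ± 0.40, with 0.447, 0.475 and 0.215 CPM with shKDM5A-1 and 0.485, 0.362 and 0.373 CPM with shControl in 293T. In 293T ICOSLG was also lower (-0.46 ± 0.10, edgeR adjusted p = 3.34e-04), and the other 3 genes were not called there. The names C10orf32-ASMT (-7.10, edgeR adjusted p = 0.0476) and POC1B-GALNT4 (-2.52) stand for read-through transcripts that share reads with their member genes. C10orf32-ASMT had 0, 0 and 0 CPM with shKDM5A-1 and 1.01, 1.25 and 0 CPM with shControl in MDA-MB-231, so its fitted value depends on the prior count and gives no bound. Its call was lost with a replicate block (edgeR adjusted p = 0.0996) and without most single libraries, and that of POC1B-GALNT4 without 7 of the single libraries, so both are uncertain.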

How the results depend on the processing

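No named gene that was called changed its sign under any alternative run, and KDM5A stayed between -1.627 and -1.513 (log2 fold change) whichever library was left out. A 1.5-fold minimum left 578 genes higher and 1288 lower with shKDM5A-1 against shControl, 983 and 1260 against shKDM5A-2, and 707 and 540 for the difference between lines, and it ended the calls of members that moved less, ribosomal and mitotic genes among them. With DESeq2, 3651 genes were higher and 3407 lower, and 7044 of its calls were shared with edgeR in sign. Leaving out each library in turn gave 3901 to 4339 genes higher and 3860 to 4182 lower against shControl, 4235 to 4628 and 3795 to 4229 against shKDM5A-2, and 2761 to 3194 and 2410 to 2935 for the difference between lines. Replicate numbers are shared between groups, but residuals of equally numbered shKDM5A-1 and shControl libraries correlated at -0.0111, 0.0955 and 0.0481, so the numbers were not read as pairs. With a replicate block 4307 genes were higher and 4166 lower against shControl, 4555 and 4124 against shKDM5A-2, and 3119 and 2559 for the difference between lines. Depth limits genes near 1 CPM, and 1 hairpin per group leaves effects of the hairpin itself and of KDM5A loss impossible to tell apart.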
